A study of Mus with 15 samples.

Results

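The levels of 7 transcripts of the circadian clock were examined in the abdominal aorta, 1 transcript for each of the genes Arntl, Clock, Per1, Per2, Per3, Nr1d1 and Dbp. They were chosen by their Ensembl identifiers, and all 7 were listed for all 15 mice, among 108027 Ensembl transcripts that the files of every mouse shared. The mice were wild-type C57BL/6 males. Mice of the Control group (n = 5) received saline by osmotic pump, mice of the AngII group (n = 5) received angiotensin II at 500 ng/kg/min, and mice of the AngII + QDG group (n = 5) received the same angiotensin II infusion together with Qingda granule (QDG), a herbal formula, at 1.145 g/kg/day by mouth. Control and AngII mice were given water by mouth in its place, and treatment lasted 14 days in all groups. The hour of day at which the aortas were taken is not given in the sources used here. The comparisons asked whether the clock transcripts differed between AngII and Control mice or after QDG treatment, and whether they rose and fell together or in opposition from mouse to mouse.

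The circadian clock is a feedback loop of transcription that runs in nearly every cell, including the smooth muscle of the aorta, where blood pressure and vascular tone follow a daily rhythm. The proteins of Arntl (also called Bmal1) and Clock bind together to E-box sequences and switch on the Per and Cry genes, whose proteins return to the nucleus and block their own activators. Nr1d1, also called Rev-erb alpha, is switched on by the same activators and represses Arntl, and Dbp is a direct output of the loop, so that in a rhythmic tissue Arntl peaks when Dbp and Nr1d1 are near their lowest.

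Values are FPKM (fragments per kilobase of transcript, scaled to the mapped fragments of each library), 1 value per transcript and mouse. Summed FPKM lay between 454587 and 547311 per mouse, and from 25675 to 29249 transcripts reached an FPKM of 1. Absolute depth is unknown, and relative depth, estimated from the ratios of low values, differed by 1.13-fold between the extreme mice. The files of Control and AngII mice held a list of 126719 transcripts and those of AngII + QDG mice another list of 125443, so the list and QDG treatment cannot be told apart in any difference that involves AngII + QDG mice. Tissue and cell type markers were not analysed here, because the files hold transcript identifiers without gene names. In whole tissue, fewer cells of a type and less RNA per cell cannot be told apart.

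Nr1d1 was the highest of the 7 transcripts, with 73.9 ± 18.2 FPKM (mean and SD, n = 15 mice), and Dbp followed with 28.0 ± 13.8 FPKM. Nr1d1 exceeded Dbp in 15 of 15 mice, and Dbp exceeded Per1 in 15 of 15. Below them, Per1 had 5.22 ± 4.30 FPKM, Per2 4.07 ± 1.41, Clock 3.33 ± 1.69, Per3 1.56 ± 1.36 and Arntl 1.44 ± 1.46 (SD, n = 15). The order of the low transcripts was within the spread between mice for most neighbours, since Per1 was above Per2 in 9 of 15 mice, Per2 above Clock in 9 of 15 and Per3 above Arntl in 8 of 15, whereas Clock was above Per3 in 13 of 15. Each value belongs to a single transcript and not to the whole gene. RefSeq lists 5 curated mRNAs of Arntl, 3 of Clock, 3 of Per3, 2 of Per1 and 1 each of Per2, Nr1d1 and Dbp, and fragments shared between the isoforms of a gene can be divided differently from mouse to mouse.

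**Figure D1:**
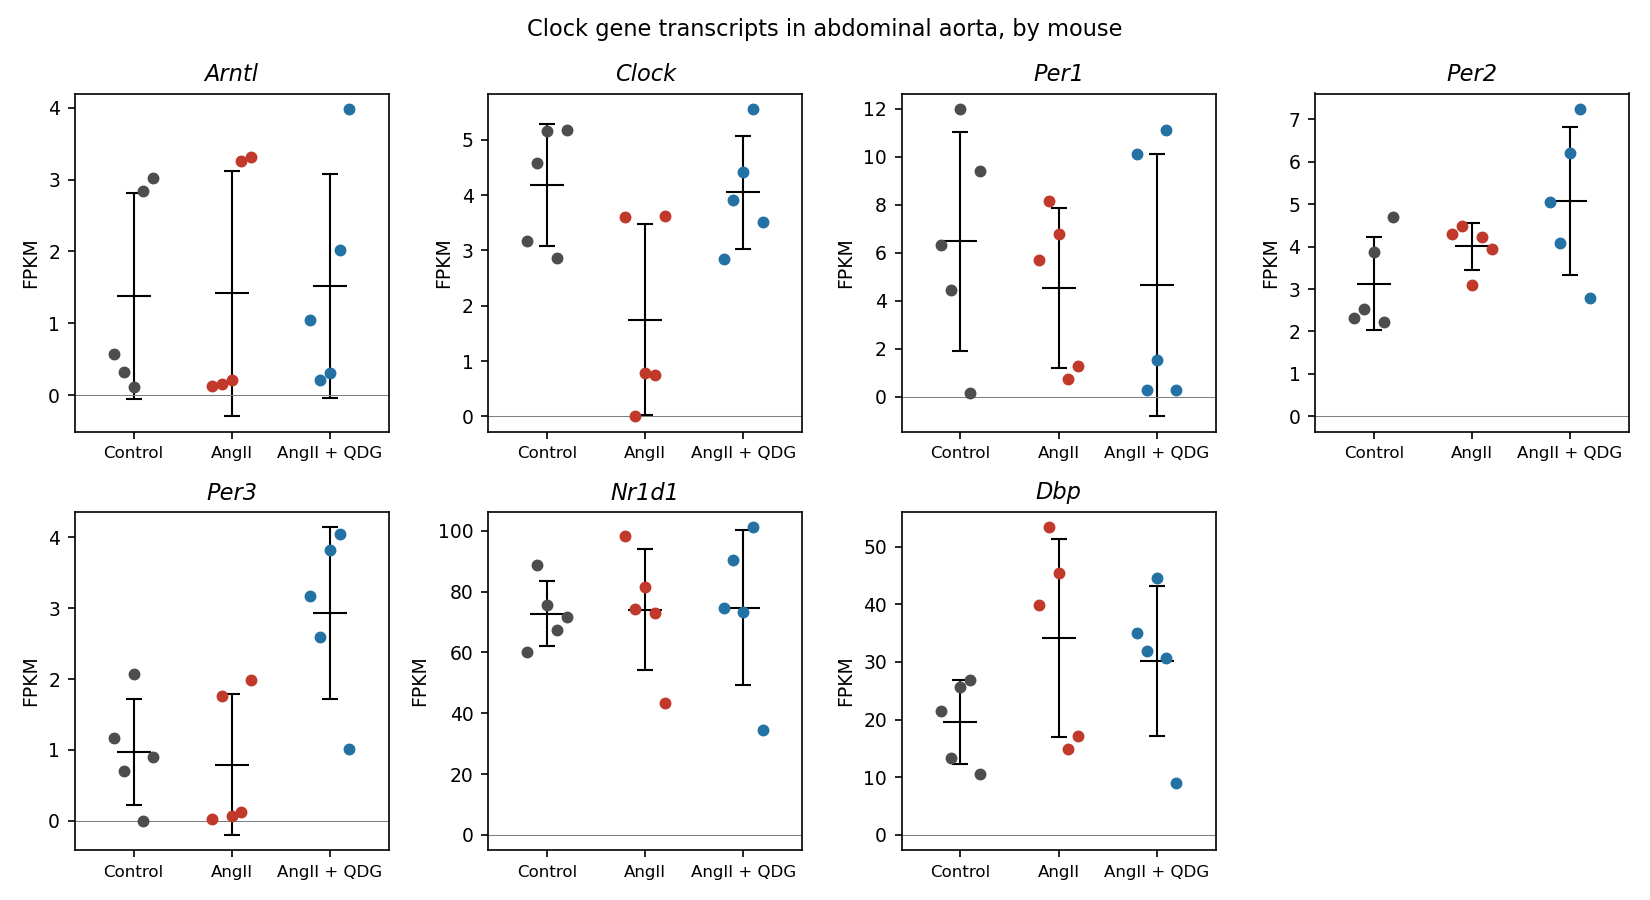
FPKM of the 7 clock transcripts (vertical axis, a linear scale of its own in each panel) in the Control, AngII and AngII + QDG groups (horizontal axis). Points are single mice, and the bars give the mean and SD of 5 mice. Arntl runs from below 1 to above 3 FPKM in each group, 3 AngII mice lie below every Control mouse for Clock, and 4 AngII + QDG mice lie above every other mouse for Per3.

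Differences between groups were tested with limma on log2(FPKM + 1), after transcripts were dropped unless 5 or more of the 10 mice compared reached 1 FPKM. Differences are given on this log2 scale, which understates changes of low transcripts. At a Benjamini-Hochberg adjusted p below 0.05 over all transcripts tested, limma called 0 of the 7 clock transcripts in any of the 3 comparisons. Between AngII and Control mice, 5 members passed the filter and 1 had an unadjusted p below 0.05 (background 4.75% of the 27327 transcripts tested, and 0.00732% at the adjusted threshold). Between AngII + QDG and AngII mice all 7 passed the filter and 2 had an unadjusted p below 0.05 (background 7.86% of 21081, and 1.73% at the adjusted threshold). Between AngII + QDG and Control mice all 7 passed and 1 had an unadjusted p below 0.05 (background 8.98% of 21250, and 1.81% at the adjusted threshold). The study's own criterion, a fold change of at least 2 with a p below 0.05, applied here to the unadjusted p, was met by 1 member (Clock), 2 members (Clock and Per3) and 1 member (Per3) in the 3 comparisons, against 1.5%, 3.53% and 3.64% of all transcripts tested. The median difference of the fitted members was -0.01, 0.15 and 0.09, where the median over all transcripts tested was 0.02, -0.00 and 0.02. A 2-sided exact permutation test was run beside limma for each of the 7 members in each comparison, 21 tests in all, and the smallest p that 5 mice against 5 allow is 0.00794.

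**Figure D2:**
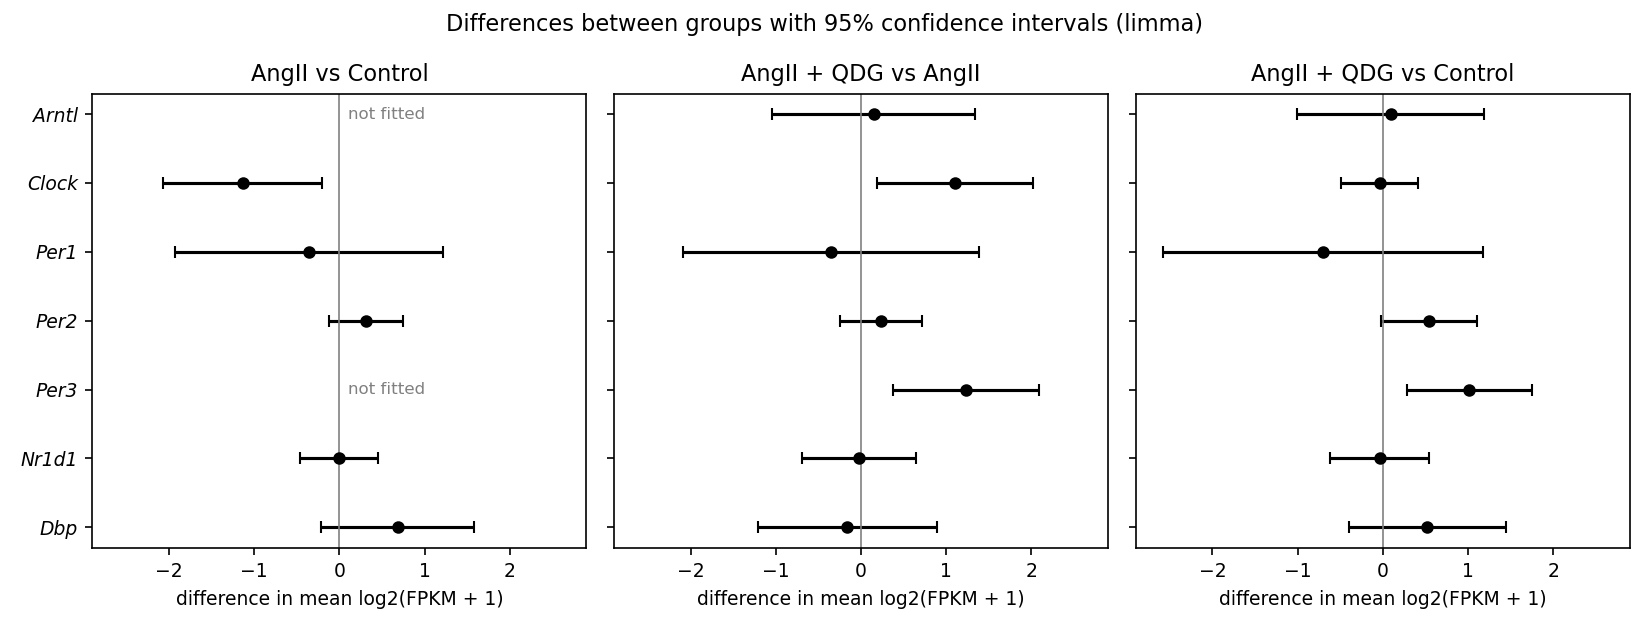
Difference in mean log2(FPKM + 1) between groups (horizontal axis) for each clock transcript (vertical axis), in the 3 comparisons. Points are limma estimates from 5 and 5 mice and bars are 95% confidence intervals. The intervals leave out 0 for Clock in the 2 comparisons with AngII mice and for Per3 in the 2 comparisons of AngII + QDG mice, all without adjustment, and Arntl and Per3 were too low to be fitted in AngII vs. Control.

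Arntl (ENSMUST00000047321) encodes the activator without which the loop stops, and its gene lies on chromosome 7 from 113178471 to 113314126 (GRCm38). Its FPKM was 0.106, 0.326, 0.571, 2.84 and 3.03 in the Control mice. It was 0.130, 0.159, 0.209, 3.26 and 3.32 in the AngII mice and 0.213, 0.309, 1.05, 2.03 and 3.99 in the AngII + QDG mice. Every group thus held mice with almost none of this Arntl transcript and mice with several FPKM. The groups overlapped along nearly their whole range. Other isoforms of the gene were not examined. The group means were 1.37 ± 1.43 (SD, n = 5), 1.42 ± 1.71 (SD, n = 5) and 1.52 ± 1.56 (SD, n = 5). With 4 of 10 mice at an FPKM of 1 or more, Arntl was not fitted in AngII vs. Control, where its difference of -0.06 had an exact permutation p = 0.833 and lay between -0.34, without AngII mouse 4048, and 0.19, without Control mouse 4086. After QDG treatment it differed from AngII mice by 0.15, with a 95% confidence interval from -1.04 to 1.34 (limma adjusted p = 0.998). Over the 15 mice the highest value was 37.5 times the lowest, and the SD of its log2(FPKM + 1), 0.86, was reached by 14.7% of the 23914 transcripts that 5 or more mice held at 1 FPKM or above.

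Clock (ENSMUST00000075159, gene on chromosome 5 from 76209868 to 76305603) encodes the partner of the Arntl protein. The FPKM of this transcript was 2.86, 3.16, 4.58, 5.16 and 5.18 in the Control mice. In the AngII mice it was listed at 0 in mouse 3987, at 0.741 in mouse 3989 and at 0.788 in mouse 3988, and reached 3.60 and 3.62 in the other two. It was 2.84, 3.51, 3.91, 4.43 and 5.56 in the AngII + QDG mice. The AngII group therefore fell into 3 mice below every mouse of the other groups and 2 mice within the Control range. The transcript passed the filter in both comparisons with AngII mice mainly through the group where it is high, with all 5 Control or AngII + QDG mice and 2 of 5 AngII mice. The difference between AngII and Control mice was -1.14 with an interval from -2.07 to -0.20 (limma unadjusted p = 0.0221, adjusted p = 0.995, exact permutation p = 0.0476). Between AngII + QDG and AngII mice it was 1.10 with an interval from 0.18 to 2.02 (limma unadjusted p = 0.0231, adjusted p = 0.450, exact permutation p = 0.0635), a comparison that shares the AngII mice with the former. With a pseudocount of 0.1 in place of 1, which gives low values more weight, the former 2 differences were -2.05 and 2.01. AngII + QDG and Control mice differed by -0.03, with an interval from -0.48 to 0.42 (limma adjusted p = 0.986). With 1 mouse left out, the exact permutation p was below 0.05 in 2 of 10 cases in AngII vs. Control (0.0238 to 0.0952) and in 2 of 10 in AngII + QDG vs. AngII (0.0238 to 0.111). The criterion of fold and unadjusted p was lost in AngII vs. Control without mouse 3989, through the p (difference -1.03, limma unadjusted p = 0.0502). It was also lost there without mouse 3987, through the fold (difference -0.83). In AngII + QDG vs. AngII the criterion was lost through the p without AngII mouse 3988 or 3989 or AngII + QDG mouse 3984. The differences were then 1.01, 1.00 and 1.00, and the limma unadjusted p was at most 0.0524. It was lost through the fold without AngII mouse 3987, where the difference came to 0.80.

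The Per genes encode repressors of the loop, and the transcripts of Per1 and Per2 are acutely induced by hormones and other signals as well as by the clock. Per1 (ENSMUST00000021271, gene on chromosome 11 from 69095108 to 69109965) had the largest SD of the 7 on the log2 scale. Its FPKM was 0.171, 4.47, 6.33, 9.43 and 12.0 in the Control mice. It was 0.728, 1.27, 5.70, 6.79 and 8.14 in the AngII mice and 0.268, 0.276, 1.54, 10.1 and 11.1 in the AngII + QDG mice. Each group held at least 1 mouse near or below 1 FPKM, and the extremes differed by 70.1-fold. An SD on the log2 scale as large as that of Per1, 1.31, was reached by 4.51% of transcripts. The mean FPKM was 6.48 ± 4.56 (SD, n = 5) in Control, 4.53 ± 3.34 (SD, n = 5) in AngII and 4.66 ± 5.47 (SD, n = 5) in AngII + QDG mice. The mean of AngII + QDG mice was thus slightly above that of AngII mice, unlike on the log2 scale. There the difference was -0.35 in AngII vs. Control, with an interval from -1.93 to 1.22, and -0.35 in AngII + QDG vs. AngII, with an interval from -2.09 to 1.38. In AngII + QDG vs. Control it was -0.70, with an interval from -2.58 to 1.17 (limma adjusted p = 0.937, and 0.995 and 0.996 in the former comparisons), so that changes of more than 2-fold in either direction were within the error. On leaving out 1 mouse, the difference lay between -0.93, without Control mouse 4000, and -0.0075, without AngII mouse 3989, in AngII vs. Control. It lay between -0.80, without mouse 3984, and 0.019, without mouse 3982, in AngII + QDG vs. AngII, and between -1.28, without mouse 4000, and -0.34, without mouse 3982, in AngII + QDG vs. Control.

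Per2 (ENSMUST00000069620, gene on chromosome 1 from 91415977 to 91459351) varied far less, and all 15 mice were above 1 FPKM. Its FPKM was 2.23, 2.31, 2.54, 3.87 and 4.69 in the Control mice, 3.08, 3.94, 4.22, 4.31 and 4.49 in the AngII mice, and 2.78, 4.08, 5.05, 6.21 and 7.25 in the AngII + QDG mice. The groups overlapped, although 3 AngII + QDG mice were above every Control and AngII mouse. AngII + QDG and Control mice differed by 0.54 with an interval from -0.02 to 1.10 (limma unadjusted p = 0.0558, adjusted p = 0.581, exact permutation p = 0.0635). The steps from Control to AngII, 0.31 (limma adjusted p = 0.995), and from AngII to AngII + QDG, 0.23 (limma adjusted p = 0.963), did not pass adjustment. With 1 mouse left out, the step from AngII to AngII + QDG lay between 0.11, without mouse 3984, and 0.39, without mouse 3985. The exact permutation p was below 0.05 in 1 of 10 cases for each of these steps (lowest 0.0317 and 0.0476) and in 2 of 10 for AngII + QDG vs. Control (lowest 0.0317).

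Per3 (ENSMUST00000103204, gene on chromosome 4 from 150997018 to 151044707) encodes the third PER protein. Its FPKM was 0.00468, 0.704, 0.902, 1.17 and 2.07 in the Control mice and 0.0267, 0.0646, 0.132, 1.77 and 1.98 in the AngII mice. In the AngII + QDG mice it was 1.01, 2.59, 3.16, 3.82 and 4.04. Thus 4 of the 5 AngII + QDG mice were above all 10 other mice, and mouse 3985 was not. The means were 0.970 ± 0.751 (SD, n = 5) in Control, 0.795 ± 0.990 (SD, n = 5) in AngII and 2.93 ± 1.21 (SD, n = 5) in AngII + QDG mice. In both comparisons with AngII + QDG mice the transcript passed the filter mainly through the group where it is high. All 5 AngII + QDG mice and 2 of 5 mice of either other group reached 1 FPKM. The difference from AngII mice was 1.23 with an interval from 0.37 to 2.09 (limma unadjusted p = 0.00950, adjusted p = 0.276, exact permutation p = 0.0317). The difference from Control mice was 1.02 with an interval from 0.28 to 1.75 (limma unadjusted p = 0.0116, adjusted p = 0.285, exact permutation p = 0.0238). The comparisons share the AngII + QDG mice. Neither difference passed adjustment, and in both the groups also differ in the transcript list. With a pseudocount of 0.1 the differences were 2.61 and 1.88. With 1 mouse left out, the exact permutation p stayed below 0.05 in 4 of 10 cases against AngII mice (0.0238 to 0.0635) and in 6 of 10 against Control mice (0.0159 to 0.0556). The second difference was below 1 when AngII + QDG mouse 3981, 3983 or 3984 or Control mouse 4000 or 3994 was left out, with the lowest value, 0.80, without mouse 4000. Between AngII and Control mice Per3 was not fitted, and its difference of -0.22 had an exact permutation p = 0.571 and lay between -0.44, without AngII mouse 4048, and -0.034, without Control mouse 3996.

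Nr1d1 (ENSMUST00000064941, gene on chromosome 11 from 98767932 to 98775377) encodes a nuclear receptor that represses Arntl. Its FPKM was 60.2, 67.3, 71.7, 75.6 and 88.8 in the Control mice, 43.3, 73.1, 74.3, 81.4 and 98.2 in the AngII mice, and 34.3, 73.3, 74.6, 90.5 and 101.1 in the AngII + QDG mice. The group means were 72.7 ± 10.6 (SD, n = 5), 74.1 ± 19.9 (SD, n = 5) and 74.8 ± 25.4 (SD, n = 5), and the groups overlapped throughout. The difference in AngII vs. Control was -0.01 with an interval from -0.47 to 0.45, and in AngII + QDG vs. AngII it was -0.02 with an interval from -0.70 to 0.65 (limma adjusted p = 1.00 and 0.999). The lowest values of the 2 treated groups, in AngII mouse 4048 and AngII + QDG mouse 3985, were also the lowest of all 15 mice.

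Dbp (ENSMUST00000080885, gene on chromosome 7 from 45705100 to 45710203) encodes a PAR bZIP transcription factor that carries the rhythm to output genes. Its FPKM was 10.6, 13.4, 21.4, 25.6 and 26.8 in the Control mice. It was 14.9, 17.2, 39.8, 45.5 and 53.4 in the AngII mice and 8.999, 30.7, 31.8, 35.1 and 44.5 in the AngII + QDG mice. The AngII group split into 2 mice within the Control range and 3 mice above it, and 4 of 5 AngII + QDG mice were above every Control mouse, with mouse 3985 below all of them. The means were 19.6 ± 7.29 (SD, n = 5), 34.2 ± 17.3 (SD, n = 5) and 30.2 ± 13.0 (SD, n = 5). The difference of AngII from Control mice was 0.69 with an interval from -0.21 to 1.58 (limma adjusted p = 0.995, exact permutation p = 0.159). That of AngII + QDG from Control mice was 0.53 with an interval from -0.39 to 1.44 (limma adjusted p = 0.857, exact permutation p = 0.262). With 1 mouse left out this difference lay between 0.34, without Control mouse 4086, and 0.90, without mouse 3985, and 1 of the 10 exact permutation p-values, from 0.0238 to 0.508, was below 0.05.

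To assess opposed variation, the levels of the members were correlated across the 15 mice. Pearson's r of Arntl was below 0 with Dbp, Nr1d1 and each Per transcript. For Per2 (-0.04) and Per3 (-0.13) it was near 0 (permutation p = 0.883 and 0.646). For Dbp, Pearson's r was -0.68 (permutation p = 0.00696) and Spearman's rho was -0.69 (permutation p = 0.00584). With each group's mean subtracted, so that only differences between mice of the same group remained, r was -0.74 (permutation within groups, p = 0.00580). Without mice 4048 and 3985, the farthest from the median of Arntl, r was -0.56 (permutation p = 0.0450). Among the 10 Control and AngII mice alone, which share a transcript list, r was -0.63 (permutation p = 0.0560). Of the 23913 other transcripts compared, 0.121% had an r with Arntl as low as that of Dbp.

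The levels of single mice show the opposition in part. The 3 AngII mice with the lowest Arntl, 3986, 3987 and 3988 (0.130 to 0.209 FPKM), had 39.8, 53.4 and 45.5 FPKM of Dbp. The other two AngII mice, 3989 and 4048, had 3.26 and 3.32 FPKM of Arntl with 14.9 and 17.2 of Dbp. AngII + QDG mouse 3985 had the highest Arntl and the lowest Dbp and Nr1d1 of all 15 mice. On the log2 scale the ratio of Dbp to Arntl ran from 1.17 in this mouse to 8.39 in AngII mouse 3987. It ran from 1.80 to 7.91 within the Control group and from 1.17 to 7.22 within the AngII + QDG group. A wide range of this ratio does not by itself show opposition, since Arntl alone varied 37.5-fold over the 15 mice and Dbp 5.93-fold. In order of rising Arntl, the Control mice had 25.6, 13.4, 21.4, 26.8 and 10.6 FPKM of Dbp. Not every mouse followed the opposition. Control mouse 3994 was low in both transcripts, with 0.326 FPKM of Arntl and 13.4 of Dbp, and Control mouse 4000 had 2.84 FPKM of Arntl with 26.8 of Dbp, the highest Dbp of its group.

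**Figure D3:**
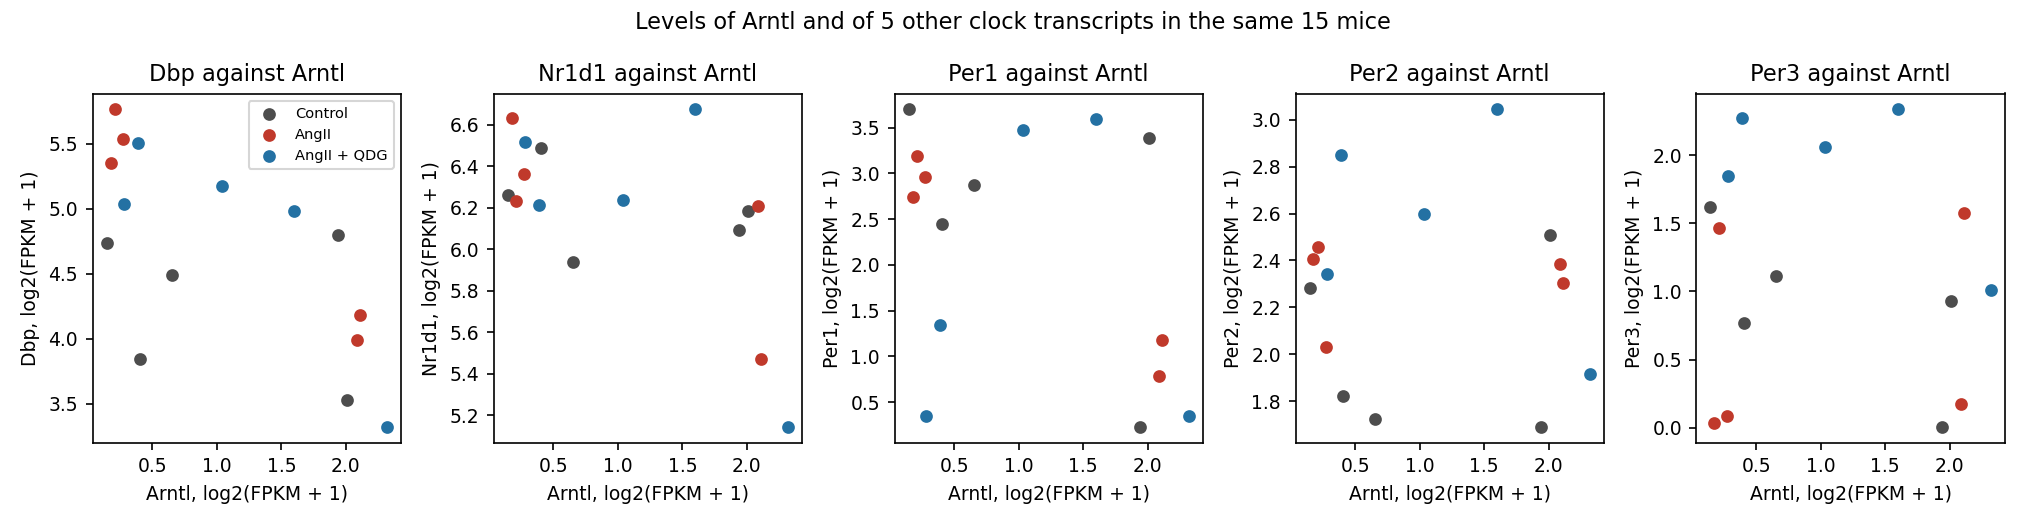
Level of Dbp, Nr1d1, Per1, Per2 and Per3 (vertical axes) against that of Arntl (horizontal axes) in the same mouse, as log2(FPKM + 1), with 1 point per mouse and colours for the 3 groups. Dbp falls from left to right (r = -0.68), Nr1d1 does so mainly through the 2 mice at the lower right (r = -0.58), and Per2 shows no slope (r = -0.04).

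For Nr1d1, r with Arntl was -0.58 (permutation p = 0.0158), rho was -0.65 (permutation p = 0.0104) and r within groups was -0.58 (permutation p = 0.0285). Without mice 4048 and 3985 it was -0.25 (permutation p = 0.415), so the linear relation rested on these mice, and without mouse 3985 alone it was -0.46 (permutation p = 0.0975). For Per1, r was -0.41 (permutation p = 0.129) and rho -0.39 (permutation p = 0.148). Among Control and AngII mice alone the r of Per1 was -0.70 (permutation p = 0.0288). AngII + QDG mice 3982 and 3983, which were low in Arntl, were also low in Per1, with 0.268 and 1.54 FPKM. For Per2, r was -0.04 and rho -0.08 (permutation p = 0.883 and 0.774), and for Per3, r was -0.13 and rho -0.06 (permutation p = 0.646 and 0.842). Arntl and Clock were not seen to vary together, with r = 0.12 and rho = -0.01 (permutation p = 0.681 and 0.985).

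Of 21 pairs of members, 4 had an unadjusted permutation p of r below 0.05, and 0 passed Benjamini-Hochberg adjustment over the pairs, where Arntl with Dbp, Arntl with Nr1d1 and Per2 with Per3 each came to 0.111. The slope on the Arntl level was also fitted with limma for all 23913 other transcripts. It was -0.60 for Dbp, with an interval from -0.97 to -0.24 (unadjusted p = 0.00296, adjusted p = 0.796), and -0.28 for Nr1d1, with an interval from -0.50 to -0.06 (unadjusted p = 0.0171, adjusted p = 0.796). With group as a further term the slope of Dbp was -0.60 (unadjusted p = 0.00183, adjusted p = 0.793). In both fits limma called 0 transcripts (0% of those tested) at an adjusted p below 0.05, and 5.83% had an unadjusted p below 0.05 without the group term and 6.01% with it.

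Of the 21 pairs, 6 had an r below 0, which were Arntl with the 5 members named above and Clock with Dbp (r = -0.35, rho = -0.34, permutation p = 0.199 and 0.221). All 10 pairs of Per1, Per2, Per3, Nr1d1 and Dbp had an r above 0 over the 15 mice and within groups, against 8 of 10 in Control and AngII mice alone. The lowest over the 15 mice was close to 0, with r = 0.01 for Per3 with Nr1d1. The share of all transcript pairs with an r above 0, or with a permutation p below 0.05, was not computed. The counts of pairs given here thus have no background. The transcripts of a mouse share its library, whose part in these correlations was not tested. They also share its scaling. The correlations were recomputed with scaling by a percentile, as described below, where the r of Per3 with Nr1d1 changed sign. Over the 15 mice the largest r of the 10 pairs was that of Per2 and Per3, with r = 0.63 and rho = 0.59 (permutation p = 0.0131 and 0.0245). This r was 0.58 within groups (permutation p = 0.0188) and 0.25 among Control and AngII mice alone (permutation p = 0.474). Without mice 4000 and 3984 it was 0.44 (permutation p = 0.135). Nr1d1 and Dbp had r = 0.54 and rho = 0.49 (permutation p = 0.0345 and 0.0634). Their r within groups, 0.60 (permutation p = 0.0657), was the largest of the 10 pairs there. Without mice 4048 and 3985 their r was 0.20 (permutation p = 0.510).

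**Figure D4:**
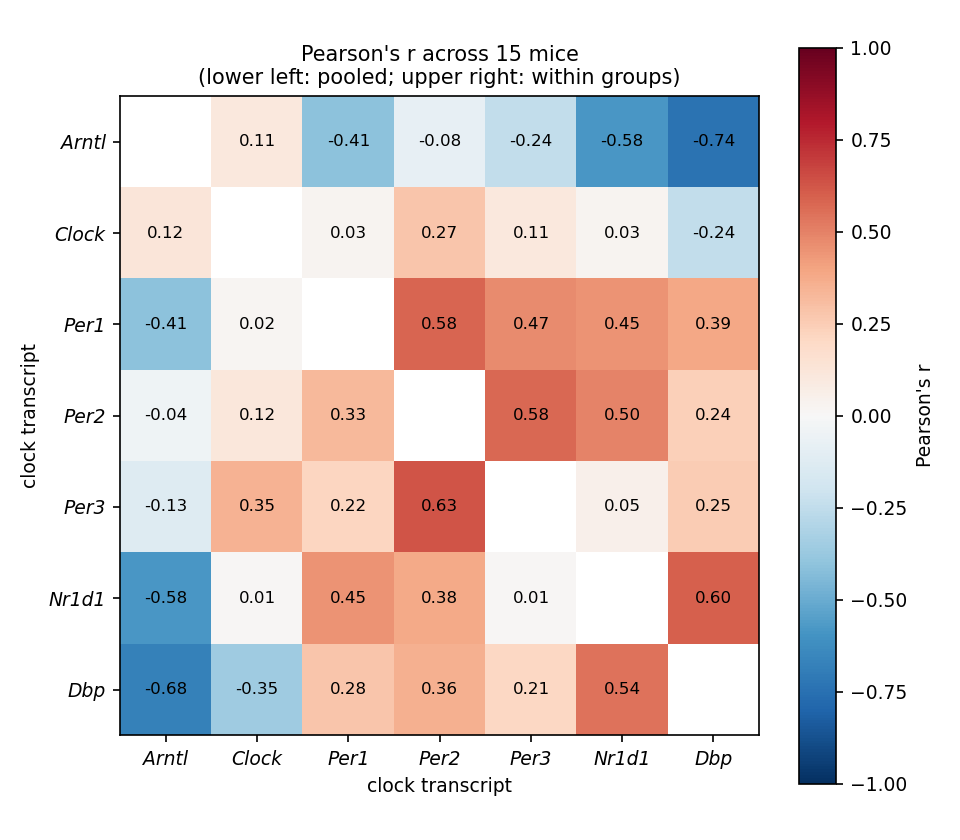
Pearson's r of log2(FPKM + 1) for each pair of the 7 clock transcripts across 15 mice (both axes list the transcripts, and colour and number give r). Values at the lower left are over all mice and those at the upper right have each group's mean subtracted. Arntl is below 0 with all members but Clock, and near 0 with Per2. The pairs among Per1, Per2, Per3, Nr1d1 and Dbp are above 0, and Per3 with Nr1d1 is near 0.

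The transcripts whose pattern over the 15 mice was most like that of Arntl were ENSMUST00000149351, with r = 0.88 and rho = 0.80, and ENSMUST00000034723, with r = 0.84 and rho = 0.91. Their FPKM ran from 1.25 to 8.43 and from 0.752 to 3.14. Most opposed to Arntl were ENSMUST00000141735, with r = -0.89 and rho = -0.88, and ENSMUST00000004756, with r = -0.85 and rho = -0.71. These are the extremes of all transcripts compared, chosen by their r, so no test is given, and their gene names were not used here.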

How the data were processed

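RNA was sequenced from the abdominal aortas of 15 mice, whose groups were taken from the sample labels. Reads were cleaned by the authors with NGSQC, mapped with HISAT2 to mouse build GRCm38/mm10 and turned into transcript levels with StringTie. The deposited files hold FPKM per transcript, scaled by the authors for transcript length and mapped fragments. The file headers do not name the unit. The submitters' notes also name limma.

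The 7 clock transcripts were paired with gene names by the list that chose them. Members and lists were chosen with earlier results of these data known. AngII vs. Control was fitted on its own list of transcripts, and comparisons with AngII + QDG mice on the shared Ensembl transcripts, each on 10 mice, by limma (version 3.58.1, R 4.3.3) with a trended prior variance. Exact tests enumerated 252 splits. Correlations used 100000 permutations (numpy 2.4.6). The slopes on Arntl were added after seeing the data. The fits were tested on simulated data. Gene loci came from RefSeq (GRCm38.p6), matched by symbol for 7 of 7 genes. The named transcripts were the 7 members and the 2 highest and 2 lowest in r with Arntl. Further clock genes (such as Cry1 and Npas2) and cell type markers were not analysed here, because transcripts come without gene names. Nothing shows that the p-values cover more than the spread between these mice. The alternatives tried were no filter, a stricter filter, a pseudocount of 0.1, 1 fit of all 3 groups, scaling by the 75th percentile and leaving out each mouse. Figures were drawn with matplotlib 3.10.9.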

Additional observations from a re-analysis of the deposited data

How the results depend on the processing

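Under all alternatives, 270 fits of a member in all, limma called 0 clock transcripts at an adjusted p below 0.05. The lowest adjusted p was 0.614 in AngII vs. Control, 0.140 for AngII + QDG against AngII and 0.126 for AngII + QDG against Control. The number of members at a fold of at least 2 and an unadjusted p below 0.05 was 0 in every comparison when an FPKM of at least 1 was required in every mouse, a filter that Arntl, Per1 and Per3 never pass and that Clock does not pass where AngII mice are compared. The members counted otherwise, Clock in the comparisons with AngII mice and Per3 in those with AngII + QDG mice, were thus not fitted, and their differences were not tested under this filter. With 1 mouse left out it was 0 to 1 in AngII vs. Control, 1 to 2 in AngII + QDG vs. AngII and 0 to 1 in AngII + QDG vs. Control.

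With 1 mouse left out, r with Arntl ran from -0.79 to -0.60 for Dbp, from -0.70 to -0.46 for Nr1d1, from -0.56 to -0.30 for Per1, from -0.16 to 0.093 for Per2, from -0.26 to -0.02 for Per3 and from -0.094 to 0.30 for Clock. Among Control and AngII mice alone, r with Arntl was -0.63 for Dbp and -0.60 for Nr1d1, no longer past 0.05 (permutation p = 0.0560 and 0.0576), -0.70 for Per1, now past it (permutation p = 0.0288), and 0.085 for Per2. In those mice r also changed sign for Clock with Nr1d1 (-0.080), Clock with Per2 (-0.19), Per3 with Dbp (-0.13) and Per3 with Nr1d1 (-0.51). With a pseudocount of 0.1 it changed sign for Clock with Nr1d1 (-0.019), Clock with Per1 (-0.079) and Per3 with Nr1d1 (-0.086), and with scaling by the 75th percentile for Per3 with Nr1d1 (-0.0042). The cause was not tested.

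Differences near 0 changed sign with 1 mouse left out. For Arntl, which passed the filter in 5 of 10 cases in each comparison with AngII + QDG mice, the fitted differences ran from -0.048 to 0.36 against AngII and from -0.13 to 0.30 against Control, and over all 10 cases without the filter, computed after seeing the data, from -0.15 to 0.44 and from -0.21 to 0.34. In AngII + QDG vs. AngII the differences ran from -0.40 to 0.21 for Dbp, from -0.20 to 0.23 for Nr1d1 and from -0.80 to 0.019 for Per1. In AngII + QDG vs. Control they ran from -0.13 to 0.059 for Clock and from -0.16 to 0.22 for Nr1d1, and in AngII vs. Control from -0.12 to 0.17 for Nr1d1. Absolute depth is unknown, so the precision of low values such as Arntl below 1 FPKM rests on the mice alone. No paired analysis was possible because each mouse number occurs in 1 group only.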
